A study of Mus musculus with 6 samples.

Results

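Peroxisomes are single-membrane organelles that liver cells use to shorten very long-chain, branched and dicarboxylic fatty acids, to trim the side chain of bile acid precursors and to break down the hydrogen peroxide these reactions release. They are built by peroxins, the PEX proteins that insert the membrane, import folded enzymes from the cytosol and divide the organelle. In rodent liver many peroxisomal enzymes are induced through the fatty acid-activated nuclear receptor PPAR-alpha, which is the basis of the name peroxisome proliferator. The genes described here are 34 symbols chosen for that function, namely 13 peroxins, 3 transporters of the peroxisomal membrane and 18 enzymes of the peroxisome interior or matrix. They are 34 of the 56674 rows of the count table, each symbol matched 1 row, and all 34 passed the filter on low counts that left 17871 genes for testing.

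The RNA came from whole liver of male C57BL/6 mice reared for 71 weeks. The 3 control libraries are from mice given normal food, and the 3 PB-MP libraries are from mice whose food contained polypropylene black microplastic (PB-MP). The group of each library is taken from its treatment characteristic and title, while the treatment protocol label names PB-MP food for all 6. The labels give no dose and do not state whether each library is a separate animal. The p-values therefore measure the spread between these libraries, and that spread may be technical. The comparison of PB-MP with control asked whether long feeding of this plastic changes liver gene expression, and the title of the series names metabolism.

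Libraries held 68357478 to 112566641 counted reads, and the least abundant member, Pex10, had 209 reads or more in each. Levels are in CPM (read counts relative to library size), scaled by the trimmed mean of M-values (TMM), and a count of 3 reads corresponds to 0.0285 to 0.0495 CPM. Hepatocyte markers were present in all libraries, 8 of 8 of them tested, at a summed 55025 to 76599 CPM before TMM scaling in the control group and 75674 to 83781 in the PB-MP group. The liver label was also checked against 5 kidney genes, since kidney is another peroxisome-rich organ: 4 of the 5 had 0 reads in every library. The 18S ribosomal RNA made up 11.2% of reads in control replicate 2 and 9.42% in PB-MP replicate 2, against 0.707% to 3.61% of the other 4 libraries. The mRNAs of the mitochondrial genome took 14.2% to 15.1% of control reads and 8.73% to 10.1% of PB-MP reads. In whole tissue, fewer cells of a type and less RNA per cell cannot be told apart.

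No peroxisomal gene passed the threshold of an adjusted p below 0.05. The edgeR quasi-likelihood test called 0 of 34, with a smallest adjusted p of 0.389, beside 0% of all 17871 genes tested. DESeq2 called 0 of the 34, beside 3.02% of all genes, and limma-voom called 0. At an unadjusted p below 0.05 in edgeR there was 1 member, Acaa1b, lower in PB-MP, beside 12.1% of all genes (4.74% lower and 7.35% higher). Control and PB-MP values were fully apart for 1 member, Hacl1, higher in PB-MP, beside 19.8% of all genes (11.4% higher and 8.49% lower). Both shares of the members lie below those of all genes. Summed over the 34 genes, peroxisomal transcripts took 1.38% ± 0.175 of control reads (SD, n = 3) and 1.29% ± 0.238 of PB-MP reads (SD, n = 3), and these unscaled shares overlapped.

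The data bounded most of these genes to less than a 2-fold difference. The 95% interval of the log2 fold change (PB-MP over control) lay within -1 to 1 for 29 of 34 members, beside 45.7% of all genes tested and 6431 of the 8802 genes with a mean level at or above that of Pex10. The 5 exceptions were Pex2, Acox2, Acaa1a, Acaa1b and Cat, for which a 2-fold difference in the direction of the estimate was not excluded. Estimates lay below 0 for 22 of the 34, beside 49.4% of all genes and 5070 of the 8802 genes at or above the level of Pex10, and with library size alone for 8 of the 34, beside 28.5% of all genes. The median estimate was -0.02 for the peroxins and -0.13 for the matrix enzymes, against 0.01 for all genes, while with library size alone as the scaling these values were 0.20, 0.09 and 0.23.

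**Figure D1:**
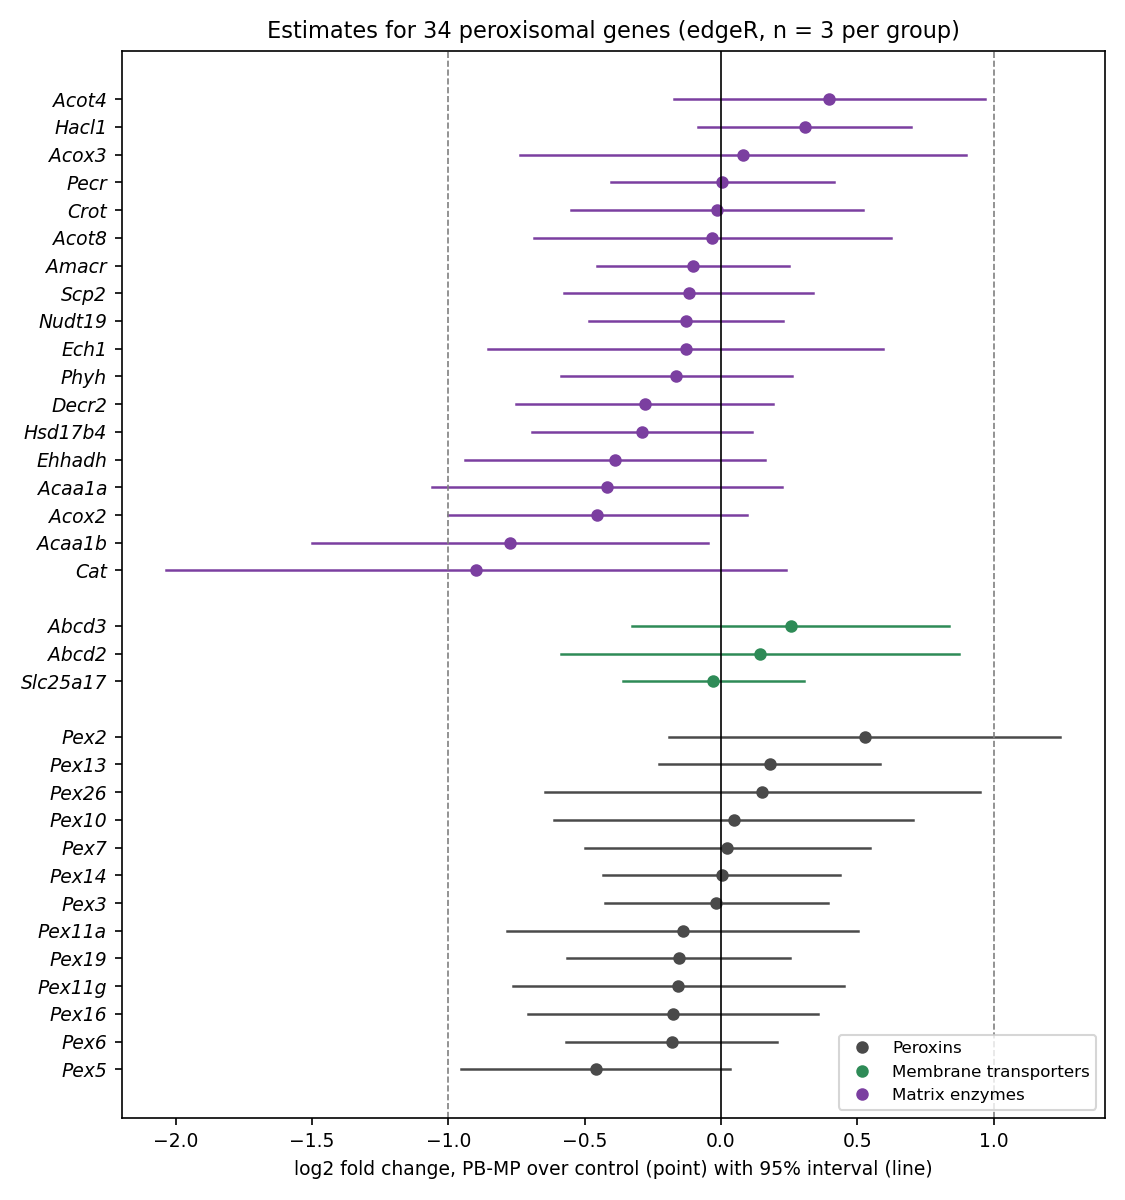
Log2 fold change of PB-MP over control (points) with its 95% interval (lines) for 13 peroxins, 3 membrane transporters and 18 matrix enzymes, from edgeR on 3 libraries per group, with dashed lines at -1 and 1. The intervals of 29 genes lie between the dashed lines, and 1 interval, that of Acaa1b, leaves out 0.

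Peroxins spanned 4.88 CPM for Pex10 to 216 CPM for Pex11a in control, and none of the 13 passed the test or separated the groups. Values of single libraries are listed in the order of replicates 1, 2 and 3. Cargo receptors bind enzymes in the cytosol by their targeting signals and carry them to the organelle. Pex5, the receptor for the C-terminal signal that most matrix enzymes carry, had control values of 139, 112 and 128 CPM and PB-MP values of 75.4, 118 and 81.9 CPM. It was lower than every control library in PB-MP replicates 1 and 3, while PB-MP replicate 2 lay inside the control range. Its log2 fold change was -0.46 ± 0.21 (SE, adjusted p = 0.435), the lowest estimate among the peroxins. Without PB-MP replicate 2, its highest PB-MP library, it was -0.69 (adjusted p = 0.369), and over all fits that left out a single library it ran from -0.69 to -0.34. Pex7, the receptor for the N-terminal signal used by a few enzymes such as phytanoyl-CoA hydroxylase, had a log2 fold change of 0.02 ± 0.22.

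At the membrane, receptors dock on Pex13 and Pex14. Pex14 had control values of 72.3, 51.2 and 70.5 CPM and PB-MP values of 72.3, 64.1 and 58.1 CPM, so the groups spanned much the same range. Its log2 fold change was 0.00 ± 0.18, with a 95% interval of -0.43 to 0.44. Pex13 had an estimate of 0.18 ± 0.17. Pex2 and Pex10 are RING-type ubiquitin ligases that mark the receptor for recycling. Pex2 had the highest estimate among the peroxins at 0.53 ± 0.30 (adjusted p = 0.525), with control values of 18.3, 14.5 and 21.0 CPM and PB-MP values of 29.9, 15.5 and 32.2 CPM. PB-MP replicates 1 and 3 were above every control library and PB-MP replicate 2 was among the lower controls. In Pex5 and in Pex2, PB-MP replicate 2 was the PB-MP library nearest to the controls. Pex10 had an estimate of 0.05 ± 0.28. Pex6, an AAA ATPase that pulls the receptor back out of the membrane, had -0.18 ± 0.16, and Pex26, its anchor on the membrane, had 0.15 ± 0.34.

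Pex3, Pex16 and Pex19 insert membrane proteins and are needed for a peroxisome to form at all. Their log2 fold changes were -0.02 ± 0.17, -0.18 ± 0.23 and -0.16 ± 0.17. Members of the PEX11 family elongate and divide peroxisomes, and Pex11a is the form that rises with PPAR-alpha agonists in rodent liver. Pex11a had control values of 247, 171 and 228 CPM and PB-MP values of 247, 128 and 212 CPM. Replicate 2 was the lowest library in each group, and the groups overlapped. The log2 fold change of Pex11a was -0.14 ± 0.27 (95% interval -0.79 to 0.50). Pex11g had an estimate of -0.16 ± 0.26, and 41.1% of its exonic bases overlap an opposite-strand gene in the reference annotation, and without the strand setting of the counting, reads of such a pair cannot be told apart. The same holds for 28.3% of the exonic bases of Pex14.

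**Figure D2:**
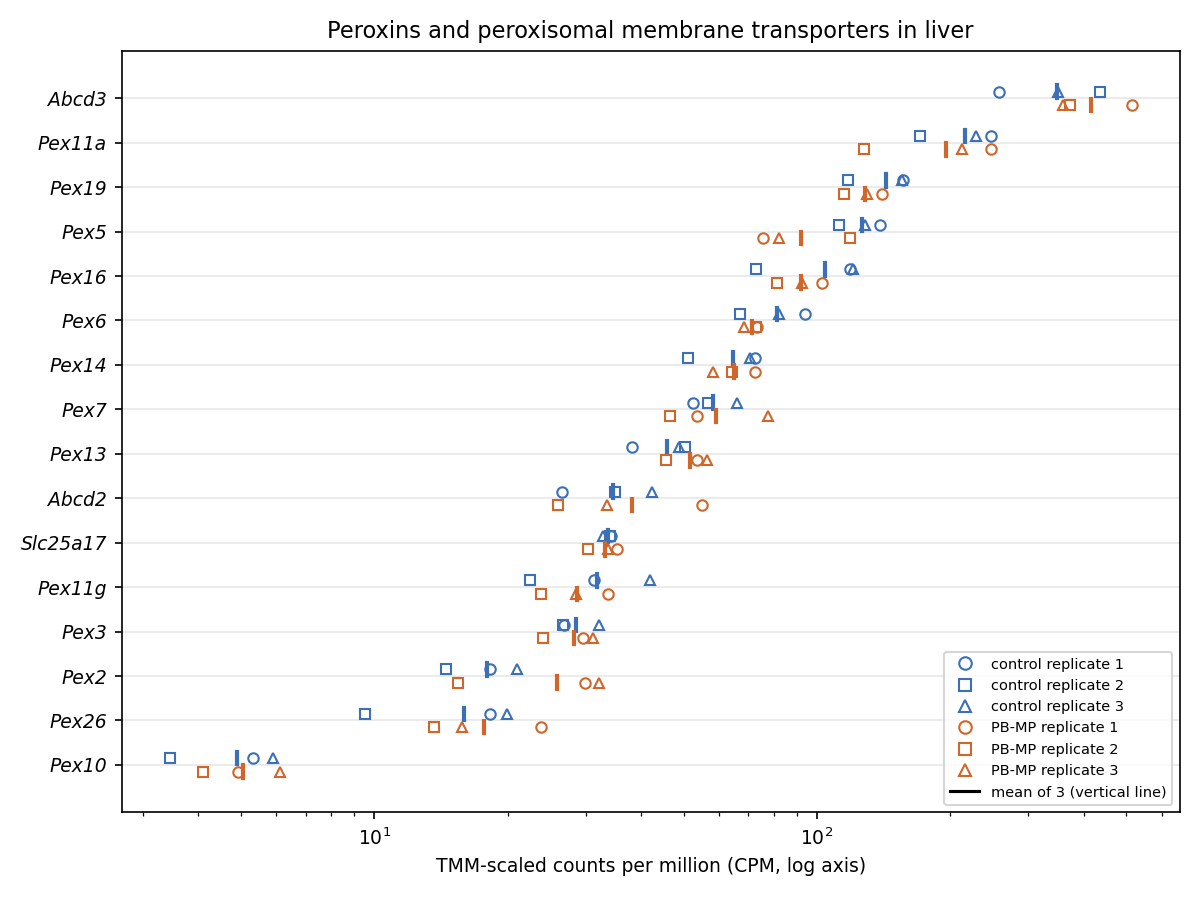
Level of 13 peroxins and 3 membrane transporters in each library, as TMM-scaled CPM on a log axis. Open symbols are single libraries (shape for the replicate number, colour for the group) and short vertical lines are means of 3. Groups overlap in every gene shown, and replicate 2 is often the lowest library of its group.

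The transporters of the peroxisomal membrane gave estimates on each side of 0. Abcd3, the ATP-binding cassette transporter that brings branched-chain and dicarboxylic acyl-CoAs and bile acid precursors into the organelle, had control values of 258, 436 and 350 CPM and PB-MP values of 514, 373 and 359 CPM. PB-MP replicate 1 was above every control library, and the others were inside the control range. The log2 fold change was 0.26 ± 0.25 (adjusted p = 0.715). Its paralog Abcd2 had 0.14 ± 0.31. Slc25a17, a carrier of cofactors such as coenzyme A and flavin and nicotinamide nucleotides, had the narrowest interval of the 34 genes, at -0.03 ± 0.14 (95% interval -0.36 to 0.30) and 30.4 to 35.3 CPM over all 6 libraries.

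The most abundant members were matrix enzymes, though other enzymes lay among or below the peroxins. Per kilobase of annotated exon, Acaa1b led in control at 1429 ± 464 CPM per kb (SD, n = 3), followed by Phyh at 943 ± 85.7, Scp2 at 830 ± 112.96 and Cat at 799 ± 110. The control libraries of the last 3 overlapped, and those of Acaa1b overlapped with each of them. The lowest control of Acaa1b was 915 CPM per kb, and the highest of Phyh, Scp2 and Cat were 1042, 921 and 924. Ech1, Ehhadh and Hsd17b4 came next at 240, 200 and 154 CPM per kb, and Acox3 was lowest at 0.773. Among peroxins the highest level per kb was that of Pex11a, at 67.7 ± 12.5. Of the 18 enzymes, 14 had estimates below 0 with TMM scaling and 7 with library size alone, and 0 of 18 passed the test.

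In the classical, PPAR-alpha-inducible spiral for straight chains, the bifunctional enzyme encoded by Ehhadh acts before the thiolases encoded by Acaa1a and Acaa1b. Acaa1b had control values of 3564, 1796 and 3050 CPM and PB-MP values of 2078, 1372 and 1466 CPM. Control replicates 1 and 3 were above all PB-MP libraries, but control replicate 2 lay below PB-MP replicate 1. The log2 fold change was -0.77 ± 0.31, a fold of 0.584 with a 95% interval of 0.353 to 0.967 (edgeR adjusted p = 0.389). Leaving out control replicate 1 gave -0.58 (adjusted p = 0.675), and leaving out control replicate 2 gave -1.04 (adjusted p = 0.155). Acaa1a had control values of 540, 287 and 519 CPM and PB-MP values of 399, 302 and 306 CPM, and its log2 fold change was -0.42 ± 0.27. In both thiolase genes control replicate 2 was the lowest control, and the PB-MP values lay below control replicates 1 and 3.

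Ehhadh had control values of 610, 465 and 711 CPM and PB-MP values of 555, 366 and 443 CPM. Control replicate 2 was again the lowest control, and the estimate was -0.39 ± 0.23 (adjusted p = 0.544). The bifunctional enzyme and both thiolases each had an estimate below 0, and none passed. Without control replicate 2, the lowest control for each of them, the estimates were -0.57 for Ehhadh (adjusted p = 0.268) and -0.69 for Acaa1a (adjusted p = 0.173). Leaving out the lowest control moves an estimate further below 0 by construction. Over all fits that left out a single library, Ehhadh ran from -0.57 to -0.25 and Acaa1a from -0.69 to -0.28.

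The thiolase genes are close copies, which limits how far their reads can be assigned. Of the 50-base words in annotated Acaa1b transcripts, 30.5% also occur in Acaa1a transcripts, and 12.4% of those of Acaa1a occur in Acaa1b. The ratio of Acaa1b reads to Acaa1a reads was 6.60, 6.25 and 5.87 in control and 5.21, 4.54 and 4.79 in PB-MP. Every PB-MP library had a lower ratio than every control library (exact permutation test over 10 splits, two-sided, p = 0.1, the smallest that 3 against 3 libraries allow). Control replicate 2 was inside its group here, unlike in the level of either gene. The ratio was not among the planned comparisons, and the share of other gene pairs with such an order was not counted.

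The stretches before the annotated start sites of some of these genes are given here as letters, and their regulatory role was not tested. Each is the 150 bases before the start, 5′ to 3′ on the strand of the gene, from RefSeq on GRCm38.p6, a build other than the GRCm39 named in the submitters' processing notes. Capitals mark the CCAAT box, printed as ATTGG where it lies on the other strand. They also mark the GC box, which is GGGCGG on the strand shown and is printed as its reverse complement CCGCCC where it lies on the other. Acaa1a and Acaa1b are shown as the copies just compared, Ehhadh as the enzyme before them, Cat and Hacl1 for the values given further on. Acaa1a lies at chr9:119341144-119341293 on the plus strand, Acaa1b at chr9:119157094-119157243 on the minus strand, and Ehhadh at chr16:21787835-21787984, Cat at chr2:103485154-103485303 and Hacl1 at chr14:31640966-31641115, all 3 on the minus strand.
Acaa1a: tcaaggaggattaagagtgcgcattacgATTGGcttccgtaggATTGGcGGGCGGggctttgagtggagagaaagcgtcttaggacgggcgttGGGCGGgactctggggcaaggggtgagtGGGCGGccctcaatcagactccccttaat
Acaa1b: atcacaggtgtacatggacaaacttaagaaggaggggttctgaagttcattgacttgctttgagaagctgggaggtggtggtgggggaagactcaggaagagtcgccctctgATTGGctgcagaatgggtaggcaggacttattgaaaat
Ehhadh: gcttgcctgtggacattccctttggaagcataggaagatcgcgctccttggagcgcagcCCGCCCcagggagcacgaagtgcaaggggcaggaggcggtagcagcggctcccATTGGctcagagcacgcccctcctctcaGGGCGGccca
Cat: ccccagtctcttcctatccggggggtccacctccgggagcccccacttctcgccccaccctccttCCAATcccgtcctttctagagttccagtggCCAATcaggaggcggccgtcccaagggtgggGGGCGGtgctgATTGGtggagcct
Hacl1: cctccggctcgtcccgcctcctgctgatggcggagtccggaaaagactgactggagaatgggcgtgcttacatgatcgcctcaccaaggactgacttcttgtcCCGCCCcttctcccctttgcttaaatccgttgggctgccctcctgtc

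An alignment of the Acaa1a and Acaa1b stretches holds 86 identical of 176 columns (48.9%), against 39.4% for Acaa1a with the unrelated Cat. The Acaa1b stretch has 48.7% G and C and no GC box, while the Acaa1a stretch has 58.7% and 3 GC boxes. RefSeq windows of 250 bases before to 50 after a start were found for 29 of the 34 symbols, as 34 windows. A GC box on either strand was in 64.7% of these windows and in 35.7% of all 32851 windows of the table. A CCAAT box was in 44.1% and 37.4%, and AGGTCA, the core of nuclear receptor elements, in 14.7% and 16.3%. The direct repeat DR1 bound by PPAR-alpha and its partner, which contains this core, was searched as a single exact form and was in 0 of the 34 windows and in 0.0396% of all. Such matches describe letters in these windows only.

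A parallel set of enzymes handles branched chains and bile acid precursors. Hsd17b4, the bifunctional enzyme of this branch, had control values of 539, 472 and 561 CPM and PB-MP values of 493, 407 and 387 CPM. PB-MP replicates 2 and 3 were below every control, and replicate 1 was inside the control range. The estimate was -0.29 ± 0.17 (95% interval -0.69 to 0.11, adjusted p = 0.532). Scp2, which encodes the thiolase of this branch and a sterol carrier protein, had control values of 2448, 3205 and 3008 CPM and PB-MP values of 2811, 2453 and 2711 CPM, for an estimate of -0.12 ± 0.19. It was highest in control replicate 2, where most other members were low, and 29.7% of its 50-base words occur in a pseudogene transcript. Of the oxidases, Acox2 had -0.45 ± 0.23 (adjusted p = 0.479) with 123 to 199 CPM in control and 109 to 150 CPM in PB-MP, and Acox3 had 0.08 ± 0.35 at 13.97 CPM or less in every library. Amacr, the racemase that sets the stereochemistry these oxidases need, had -0.10 ± 0.15.

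Alpha-oxidation removes a single carbon from phytanic acid in steps that include the hydroxylase Phyh and the lyase Hacl1, and here these genes gave estimates of opposite sign. Hacl1 had control values of 280, 240 and 261 CPM and PB-MP values of 371, 284 and 311 CPM. Every PB-MP library was above every control library, with a gap of 284 against 280 CPM at the nearest pair. The log2 fold change was 0.31 ± 0.17 (fold 1.24, 95% interval 0.943 to 1.62, adjusted p = 0.498). With control replicate 3 left out and the other libraries scaled anew, the groups of Hacl1 overlapped. In the reference annotation 31.1% of its exonic bases lie in the same-strand gene Gm49387, which was counted at 0 to 2 reads in each library. Phyh stood at 1677 to 1972 CPM in control and at 1454 to 1775 CPM in PB-MP, with an estimate of -0.16 ± 0.18. The difference between Phyh and Hacl1 was not tested.

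Auxiliary enzymes prepare unsaturated chains or release the products. Decr2, a dienoyl-CoA reductase, had -0.28 ± 0.20, and Ech1, a dienoyl-CoA isomerase also found in mitochondria, had -0.13 ± 0.31. Ech1 was the highest of all 6 libraries in PB-MP replicate 3, at 742 CPM, and the lowest in PB-MP replicate 2, at 353 CPM. Pecr, a trans-2-enoyl-CoA reductase, had 0.01 ± 0.17. Crot, which makes carnitine esters for export of shortened chains, had -0.01 ± 0.23, and its control libraries ranged from 475 to 820 CPM, wider than the 623 to 704 CPM of PB-MP. Of the acyl-CoA thioesterases, Acot4 had 0.40 ± 0.24 with 118 to 125 CPM in control and 217, 145 and 115 CPM in PB-MP replicates 1, 2 and 3, so that replicate 1 stood apart, and Acot8 had -0.03 ± 0.28. Without PB-MP replicate 1 the estimate of Acot4 was 0.10. Nudt19, a coenzyme A diphosphatase, had -0.13 ± 0.15, and 35.0% of its exonic bases overlap an opposite-strand gene.

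**Figure D3:**
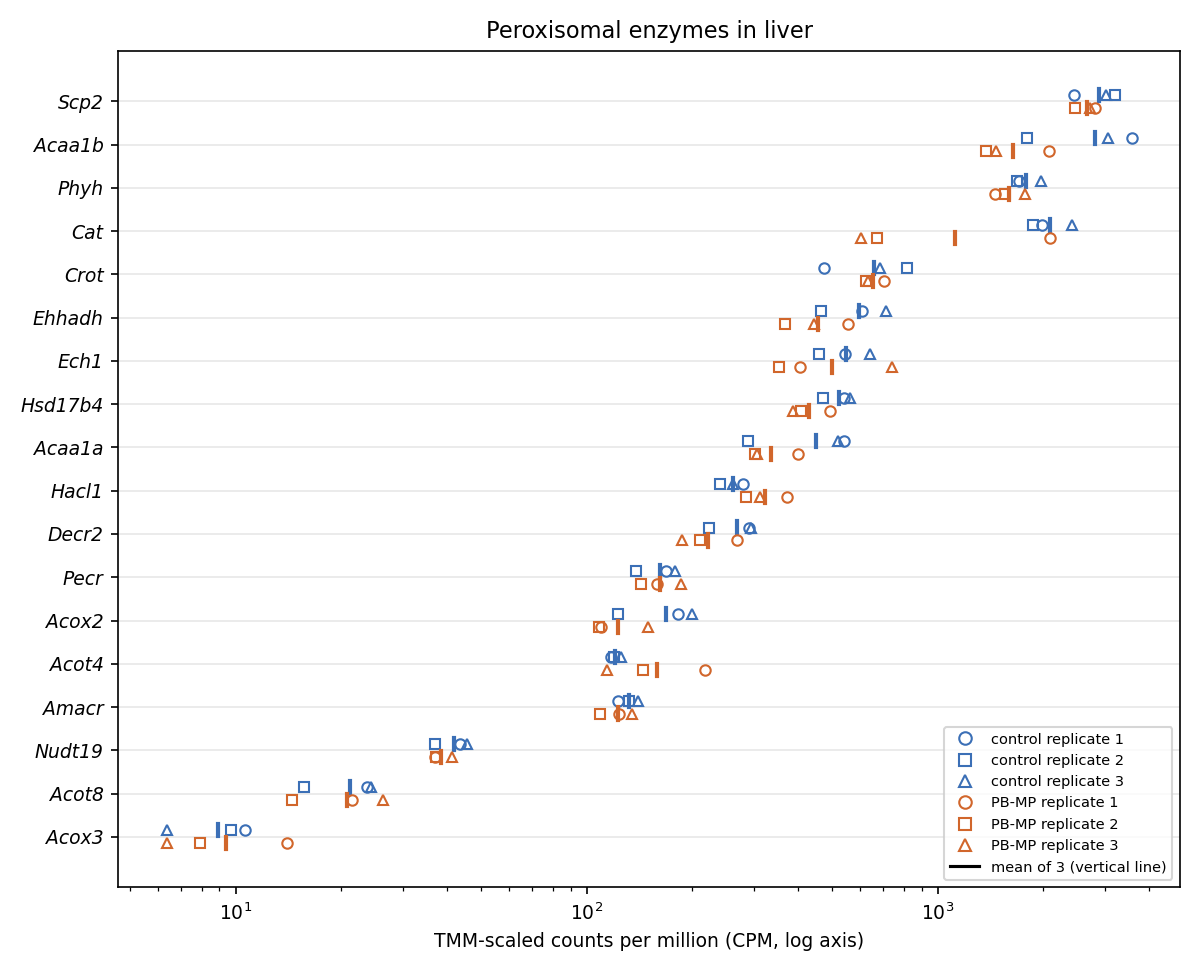
Level of 18 matrix enzymes in each library, as TMM-scaled CPM on a log axis. Open symbols are single libraries and short vertical lines are means of 3. Cat falls apart within PB-MP, with replicate 1 at 2083 CPM and replicates 2 and 3 at 673 and 606 CPM, while Hacl1 is the only gene shown whose groups do not overlap.

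Cat, which encodes catalase, the enzyme that removes the hydrogen peroxide made by the oxidases, varied more between PB-MP libraries than any other member. It had control values of 1975, 1874 and 2415 CPM and PB-MP values of 2083, 673 and 606 CPM. PB-MP replicate 1 lay inside the control range, and replicates 2 and 3 lay below the lowest control. The SD of log2 CPM was 0.99 over PB-MP and 0.19 over control. The log2 fold change was -0.90 ± 0.48, a fold of 0.537 with a 95% interval of 0.244 to 1.18 (adjusted p = 0.496). The estimate turned on single libraries: it was -1.71 ± 0.25 without PB-MP replicate 1 (adjusted p = 0.393), -0.60 without PB-MP replicate 3 and -0.64 without PB-MP replicate 2. No 50-base word of annotated Cat transcripts occurs in another gene, and no exonic base overlaps one. In 5 of the 18 matrix enzymes, namely Cat, Ehhadh, Hsd17b4, Acaa1b and Decr2, PB-MP replicates 2 and 3 lay below every control library while replicate 1 did not. This count includes Cat itself, and the share of all genes with exactly this order was not counted. The nearest count is that with PB-MP replicate 1 left out and the other libraries scaled anew. There 14.7% of all members were lower without overlap, beside 12.1% of all genes, so the members lay near the share of all genes. The order is therefore given as values only, not as a trait of the enzymes. The gap within PB-MP was widest in Cat.

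Many peroxisomal transcripts were low in the same libraries, 1 of each diet. For each gene, the deviation of log2 CPM from its mean over 6 libraries was taken. The median deviation of the 13 peroxins was -0.23 in control replicate 2 and -0.24 in PB-MP replicate 2, against 0.17, 0.19, 0.09 and -0.04 in control replicates 1 and 3 and PB-MP replicates 1 and 3. The matrix enzymes followed, at -0.13 and -0.21 against 0.15, 0.24, 0.06 and -0.03. Over all genes tested the medians stayed between 0.01 and 0.05. Control replicate 2 or PB-MP replicate 2 was the lowest of the 6 libraries for 11 of 13 peroxins, 10 of 18 enzymes and 2 of 3 transporters, together 23 of 34 (67.6%), against 26.4% of all genes. The exceptions among the peroxins were Pex5, lowest in PB-MP replicate 1, and Pex13, lowest in control replicate 1.

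These are the same 2 libraries in which 18S ribosomal RNA took 11.2% and 9.42% of the reads, and the part of ribosomal RNA in the lower peroxisomal levels was not tested. With both left out, a choice made after seeing the data, 0 of 34 members passed. At an unadjusted p below 0.05, 1 was higher and 3 were lower, together 11.8% of members beside 15.1% of all genes (9.2% higher and 5.86% lower). The groups of 2 libraries then did not overlap for 4 members higher (11.8%, beside 25.6% of all genes) and 12 lower (35.3%, beside 25%). Together these were 47.1% of members beside 50.6% of all genes. The medians were -0.08 for the peroxins and -0.13 for the enzymes, against 0.01 for all genes. Without control replicate 2 alone, 12 members (35.3%) were lower without overlap, beside 19.4% of all genes, and 1 was higher, beside 20.4%. At an unadjusted p below 0.05 there were then 5 members, all lower (14.7%), beside 7.09% of all genes lower. Control replicate 2 was the lowest of the 6 libraries for 11 of 34 members, beside 13.1% of all genes. Leaving it out therefore raises the counts of members lower in PB-MP by construction, and no difference between diets is read from them.

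**Figure D4:**
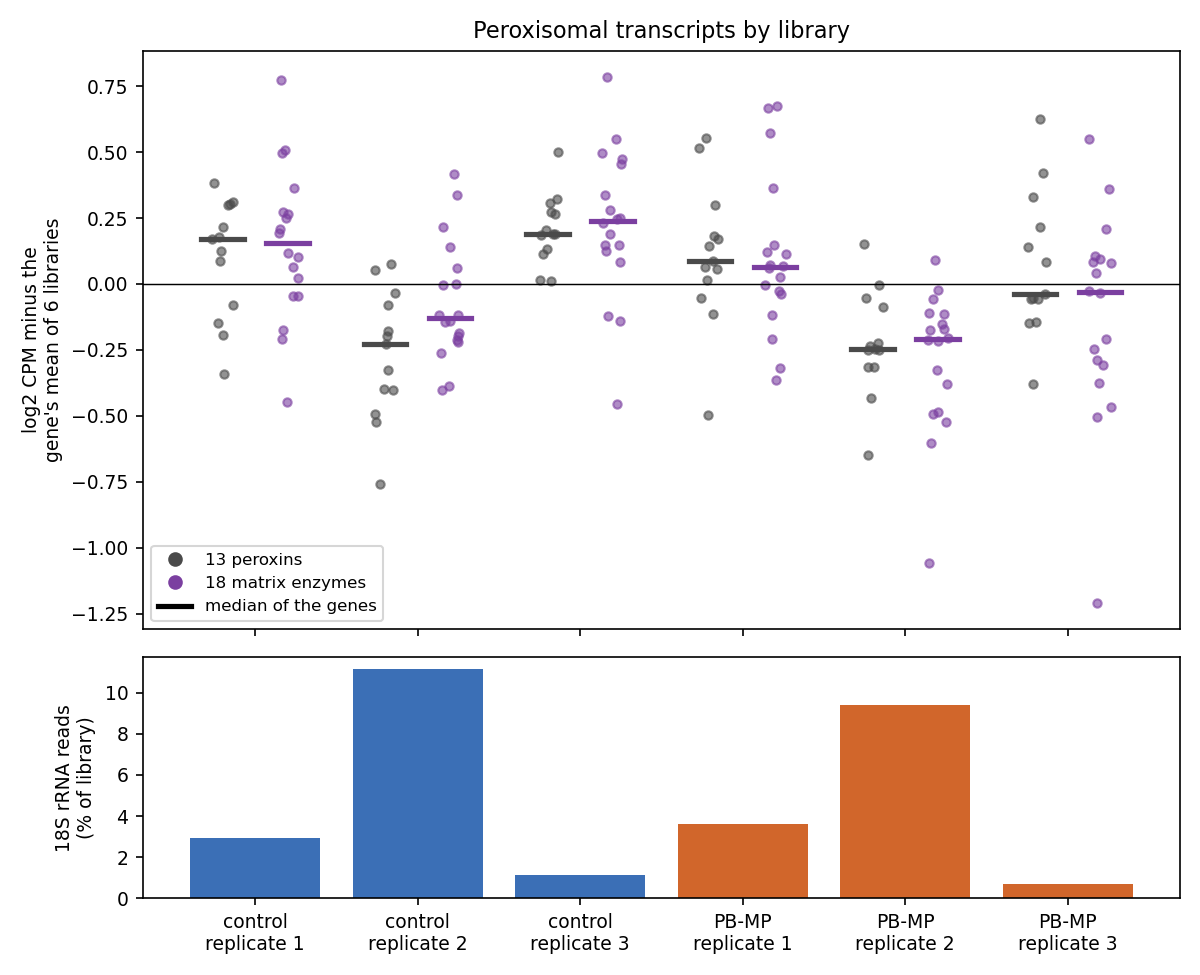
Upper panel, log2 CPM of each gene minus its mean over the 6 libraries, for 13 peroxins and 18 matrix enzymes (points) with their median (bars), by library; lower panel, share of reads from 18S ribosomal RNA in percent. Control replicate 2 and PB-MP replicate 2 have the lowest medians, -0.23 and -0.24 for the peroxins, and the most 18S reads.

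Other genes of peroxisome biogenesis and metabolism did not pass either. Of 15 further genes of biogenesis, division and the membrane, 14 were tested and 0 passed. By unadjusted p below 0.05, 1 was higher. This was Mff, a receptor for the division dynamin on mitochondria and peroxisomes, with control values of 10.98, 10.1 and 14.1 CPM and PB-MP values of 15.4, 18.0 and 25.4 CPM (log2 fold change 0.74 ± 0.25, adjusted p = 0.333). The dynamin itself, Dnm1l, had 0.90 ± 0.46. Of 38 further peroxisomal enzymes, 37 were tested, 0 passed and 1 was higher by unadjusted p. This was Far2, an enzyme of fatty alcohol synthesis, at under 3 CPM in each library (1.31 ± 0.49, adjusted p = 0.368). The thioesterase Acot3 had 0.49 ± 0.22. Medians of these lists were 0.04 and 0.05.

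Of 7 regulators around PPAR-alpha, 0 passed. Ppara itself had control values of 73.6, 150 and 198 CPM and PB-MP values of 207, 157 and 112.8 CPM (0.18 ± 0.38), overlapping across the groups. Rxra, its DNA-binding partner, had control values of 415, 241 and 384 CPM and PB-MP values of 41.0, 195 and 179 CPM, where every library was below every control (-1.33 ± 0.55, adjusted p = 0.404). The coactivator Ppargc1a had 0.37 ± 0.33. Of 24 PPAR-alpha targets outside the member list, 0 passed, 16 had estimates below 0, and the median was -0.16. Vnn1, a pantetheinase, had -0.55 ± 0.21 and Acadvl, a mitochondrial acyl-CoA dehydrogenase, -0.27 ± 0.16.

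Markers of other cell types also differed between libraries. Macrophage markers, 7 of 7 tested, summed to 110 to 127 CPM before TMM scaling over the control libraries and to 160, 130 and 377 in PB-MP replicates 1, 2 and 3. All 7 had estimates above 0, 0 passed in edgeR, and 3 (Vsig4, Marco, Cd68) were higher without overlap. Vsig4 stood at 32.7 CPM in PB-MP replicate 3 and at 14.7 CPM or less in every other library. Marco had 2.23 ± 0.82 (adjusted p = 0.360 in edgeR and 0.0461 in DESeq2). It stood at 30.3 CPM in PB-MP replicate 3 and at 4.61 CPM or less in every other library. Adipocyte markers summed to 5.85 to 16.0 (control) and 4.62 to 9.69 (PB-MP), with Lep at 0 in every library, and other markers of the list differed in direction. Cfd had 2.19 to 12.0 CPM in control and 0.615 to 1.30 CPM in PB-MP (log2 fold change -3.11 ± 0.65, adjusted p = 0.207 in edgeR and 4.45e-05 in DESeq2), Retn had -3.02 ± 0.84 at 0.333 CPM or less in every library, and Fabp4 had 0.26 ± 0.32. Stellate cell markers summed to 218 to 227 (control) and 146 to 239 (PB-MP), a sum mostly of Dcn. Of the 7, 6 had estimates below 0, 0 passed in edgeR, and 4 (Des, Col1a1, Col3a1, Acta2) were lower at an unadjusted p below 0.05 without overlap. Col1a1 had -1.04 ± 0.28 (adjusted p = 0.255 in edgeR and 0.0295 in DESeq2). The sums of endothelial, lymphocyte and cholangiocyte markers overlapped between the groups, at most 104, 22.0 and 30.6 CPM. Those of erythroid markers overlapped too, at 234 to 474 (control) and 448 to 682 (PB-MP), with Hbb-bs higher at an unadjusted p below 0.05. Of the 6 lymphocyte markers, 5 had estimates below 0 and 0 passed. Cd3e and Cd79a were lower at an unadjusted p below 0.05 in edgeR, Cd3e without overlap at 1.18 CPM or less in every library. Beside these counts, 11.4% of all genes tested were higher and 8.49% lower without overlap. At an unadjusted p below 0.05 in edgeR, 7.35% of all genes were higher and 4.74% lower. The part of these cell types in the levels of peroxisomal genes was not tested.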

How the data were processed

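Raw counts of reads, whole numbers by gene symbol, were deposited for 6 libraries and 56674 rows, and the 6 single files equalled the table of all samples. A directional kit was used on poly(A) RNA bound to beads, per the labels' protocols. The submitters' processing notes name bcl2fastq and GRCm39. Aligner, counting program, annotation and strand setting: not given in the sources used here. Of rows sharing a name (939, with 0.0308% of reads), the one with most reads kept it.

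Samples were grouped by the diet in their treatment characteristic and title. Genes were kept by filterByExpr (minimum count 10, total 15), scaled by TMM and compared in edgeR 4.0.16 (R 4.3.3) by its quasi-likelihood test, with Benjamini-Hochberg adjustment over all genes tested. The SE is the ratio of the log2 fold change to the root of the F value, and 95% intervals use the t quantile of the fit. SDs of log2 CPM add 0.5 and deviations use a prior count of 2. DESeq2 1.42.0 and limma 3.58.1 ran on the same filtered genes. The test was tested on simulated data. The members and lists were chosen with earlier results of these data known. Full values are given for members past the threshold, at an unadjusted p below 0.05 or without overlap, and for 8 genes in any case (Cat, Pex5, Pex14, Pex11a, Abcd3, Ehhadh, Hsd17b4, Scp2). Values of other members in every library, and of single cell type markers, were added after they were seen. From each other list, up to 3 genes that passed were named, or failing that the 2 of lowest p averaging 1 CPM or more, and also Ppara. A further gene of this rule is not reported here. Exon lengths, overlaps and shared 50-base words come from GENCODE M21 on GRCm38, which holds all 34 symbols, so levels per kilobase are approximate.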

Additional observations from a re-analysis of the deposited data

How the results depend on the processing

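The count of 0 members past the threshold held in all 19 alternatives, and 13 of 34 members kept their sign in each. All genes past the threshold numbered 540 in DESeq2, 1 without control replicate 1, 2 without both control replicate 2 and PB-MP replicate 3, and 0 in the others. Deviations of same-numbered libraries correlated at -0.09, 0.09 and 0.08, and those of differently numbered libraries at -0.14 to 0.08. Whether libraries of the same number share a batch was not tested. With the replicate block 2 members were lower at an unadjusted p below 0.05, 0 passed, and 1836 genes had such a p against 2161.

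Members at that unadjusted p numbered 2 higher and 0 lower with library size only (5.88%, beside 15.8% of all genes), 2 lower in limma-voom (5.88%, beside 13.7%), and 1 higher and 3 lower with quality weights (11.8%, beside 23.4%). They numbered 4 lower without control replicate 2 plus PB-MP replicate 3 (11.8%, beside 23.8% of all genes, 11.4% lower). Without control replicate 2 plus PB-MP replicate 2 they numbered 1 higher and 3 lower (11.8%, beside 15.1%, 9.2% higher and 5.86% lower). With single libraries left out they ran from 0 to 1 higher and 0 to 5 lower. Members without overlap were 4 higher with library size only (11.8%, beside 20.9% of all genes). Without control replicate 2 plus PB-MP replicate 3 they were 3 higher (8.82%, beside 30.8%) and 17 lower (50%, beside 28.5%). Without control replicate 2 plus PB-MP replicate 2 they were 4 higher (11.8%, beside 25.6%) and 12 lower (35.3%, beside 25%). With single libraries left out they ran from 0 to 3 higher and 0 to 12 lower, with 2 lower without control replicate 1 (5.88%, beside 11.8% of all genes lower), 12 without control replicate 2 (35.3%, beside 19.4%), 5 without PB-MP replicate 1 (14.7%, beside 12.1%), 1 without PB-MP replicate 2 (2.94%, beside 13.9%) and 3 without PB-MP replicate 3 (8.82%, beside 16.7%). Medians of peroxins, enzymes and all genes were 0.20, 0.09 and 0.23 with library size only, and -0.28 to 0.086, -0.30 to -0.085 and -0.00871 to 0.031 with 1 library or a pair left out. The median of all genes was 0.0413 with upper quartile scaling, 0.0267 with quality weights, 0.0551 with no filter and 0.0322 without ribosomal RNA and mitochondrial rows. The cause was not tested. Leaving out control replicate 2, where many members were low, raises the counts of members lower in PB-MP by construction.

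Signs of estimates near 0 turned. With library size only these were Pex3 (0.20), Pex6 (0.0318), Pex11a (0.0817), Pex11g (0.0613), Pex16 (0.037), Pex19 (0.061), Slc25a17 (0.19), Amacr (0.12), Scp2 (0.11), Crot (0.22), Phyh (0.053), Acot8 (0.18), Ech1 (0.0865), Nudt19 (0.087). Relative log expression scaling turned Pex14 (-0.00492), Pecr (-0.000687). Upper quartile scaling turned Pex3 (0.0176), Slc25a17 (0.00652), Crot (0.0197), Acot8 (0.00553). DESeq2 turned Pex14 (-0.00501), Pecr (-0.00071). In limma-voom they were Pex7 (-0.0051), Crot (0.0187). Quality weights turned Pex7 (-0.15), Pex10 (-0.13), Crot (0.11), Pecr (-0.0965). A filter of at least 1 CPM in 3 libraries turned Pex3 (0.0104), Crot (0.0116). The replicate block turned Pex7 (-0.00473), Crot (0.0177). Dropping ribosomal RNA and mitochondrial rows turned Pex3 (0.00372), Crot (0.00696). Leaving out control replicate 2 together with PB-MP replicate 3 turned Pex7 (-0.26), Pex10 (-0.33), Pex14 (-0.0797), Pex26 (-0.0491), Crot (0.18), Pecr (-0.22). Leaving out control replicate 2 together with PB-MP replicate 2 turned Pex3 (0.0192), Pex10 (-0.0401), Pex14 (-0.16), Slc25a17 (0.0161), Crot (0.18), Pecr (-0.032). Over the settings that leave out 1 library or a pair, the ranges of members that turned were Abcd2 -0.21 to 0.36, Acot8 -0.43 to 0.17, Acox3 -0.32 to 0.35, Crot -0.21 to 0.18, Ech1 -0.66 to 0.0668, Pecr -0.22 to 0.0885, Pex10 -0.33 to 0.19, Pex11a -0.36 to 0.0896, Pex11g -0.38 to 0.0771, Pex14 -0.17 to 0.0788, Pex26 -0.14 to 0.33, Pex3 -0.15 to 0.086, Pex7 -0.26 to 0.17, Slc25a17 -0.0752 to 0.0307. Every member had 209 reads or more in each library, and replicates of a group differed far beyond counting error (chi-square per degree of freedom 181 to 768), so the spread between 3 libraries limited precision more than depth did.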

Other observations

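Some genes of the lists outside the members had very different levels in libraries of the same diet. They are given here as values, in the order of replicates 1, 2 and 3, and were chosen after these values were seen. Creb3l3, a hepatic transcription factor that works with PPAR-alpha, had control values of 288, 12.5 and 295 CPM and PB-MP values of 269, 16.8 and 10.5 CPM. Its low libraries were control replicate 2 and PB-MP replicates 2 and 3. Cat was low in those PB-MP libraries too, but had 1874 CPM in control replicate 2. Acbd5, which tethers peroxisomes to the endoplasmic reticulum, had control values of 77.8, 314 and 184 CPM and PB-MP values of 289, 229 and 215 CPM. Crat, carnitine acetyltransferase, had control values of 101, 48.6 and 37.9 CPM and PB-MP values of 67.98, 17.8 and 47.0 CPM.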
